A study of Drosophila melanogaster with 6 samples.

Results

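Antimicrobial peptide genes encode the small secreted peptides with which *Drosophila melanogaster* attacks bacteria and fungi. Of the 10 genes sought by name (*Def*, *Drs*, *Mtk*, *DptB*, *Drsl4*, *Drsl5*, *BomS2*, *AttC*, *AttA* and *Dro*), 7 had a probe set with a single listed gene, 1 probe set each, among 10956 probe sets and 8516 named genes. *AttC*, *AttA* and *Dro* were not analysed here. Total RNA of 30 fly heads per sample was hybridised to 6 Affymetrix Drosophila 2.0 arrays, a one-colour oligonucleotide platform. Heads were pooled from flies labelled as over-expressing *cbt*, from flies labelled as carrying RNAi against *cbt*, and from control flies (named cyo in the study's design), with 2 arrays per genotype, 1 of them at ZT15 and 1 at ZT3. ZT counts the hours from lights-on, so ZT15 is night and ZT3 is day, after 3 to 4 days in a light-dark cycle. *cbt* is short for *cabut*, the gene of a sugar-responsive transcription factor with zinc fingers. The driver of the transgenes, the insertion lines, and the sex and age of the flies are not given in the sources used here, and no label says that both arrays of 1 genotype were made from separate cultures, so p-values cover only the spread between these 6 arrays.

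In flies, 2 signalling pathways that end in NF-kB factors control most of these genes. The Toll pathway is set off by fungal and many Gram-positive cell wall signals through a cascade of secreted proteases that cleave the ligand Spätzle, and its usual readouts are *Drs* and the Bomanin genes. The Imd pathway is set off by peptidoglycan of the kind found in Gram-negative bacteria, acts through the factor Relish, and has the Diptericin genes as its usual readout. The fat body, which is also found in the head, and the hemocytes are the main sources of the secreted peptides after infection, while some epithelia make single peptides locally. In the RNA of whole heads, fewer cells of a type and less RNA per cell cannot be told apart.

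Values are log2 probe set signals, so a difference of 1 is a 2-fold change in signal. Array medians lay between 7.35 and 7.42 and the highest value of the table was 14.32. The *cbt* probe set went against the labels, with 9.90 at ZT15 and 8.98 at ZT3 on the over-expression-labelled arrays, 11.05 and 10.99 on the RNAi-labelled arrays, and 10.72 and 10.21 on the control arrays. The genotypes keep the names of their labels here, without a statement on how much *cbt* each had. The 10 digestive tract markers on the table were all highest on the over-expression-labelled ZT3 array, with a mean of 8.19 there, against 5.12 on the other array of that genotype, 4.73 at ZT15 and 4.81 at ZT3 on the RNAi-labelled arrays, and 4.62 and 5.30 on the control arrays. Neuron and photoreceptor markers of the head were present on every array, with list means of 9.05 to 9.85 and 12.29 to 12.87. All 10 neuron markers on the table were below control in the over-expression-labelled genotype (median -0.49), 2 of them called lower (*cpx* at an adjusted p of 0.0299 and *Snap25* at 0.0477), and 9 of the 10 were lowest on its ZT3 array. Against the RNAi-labelled genotype 5 of these 10 and 4 of 6 photoreceptor markers were called lower. Of all 8516 genes, 4127 were below control in the over-expression-labelled genotype and 2.22% were called lower. Against the RNAi-labelled genotype 11.9% of all genes were called lower. The part of these markers in the values below was not tested.

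All 7 peptide genes had their highest signals on the 2 over-expression-labelled arrays, both of which lay above the other 4 arrays for every one of the 7 genes. Over all 8516 genes, 18.2% showed that order. The size of the difference from control ran from 1.26-fold for *BomS2* to 25.6-fold for *Def*. On the RNAi-labelled arrays *Drsl4*, *Drsl5* and *BomS2* were below control at both times, whereas *Drs*, *Mtk* and *DptB* were below control at ZT15 and above it at ZT3. *Def* overlapped control there.

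**Figure D1:**
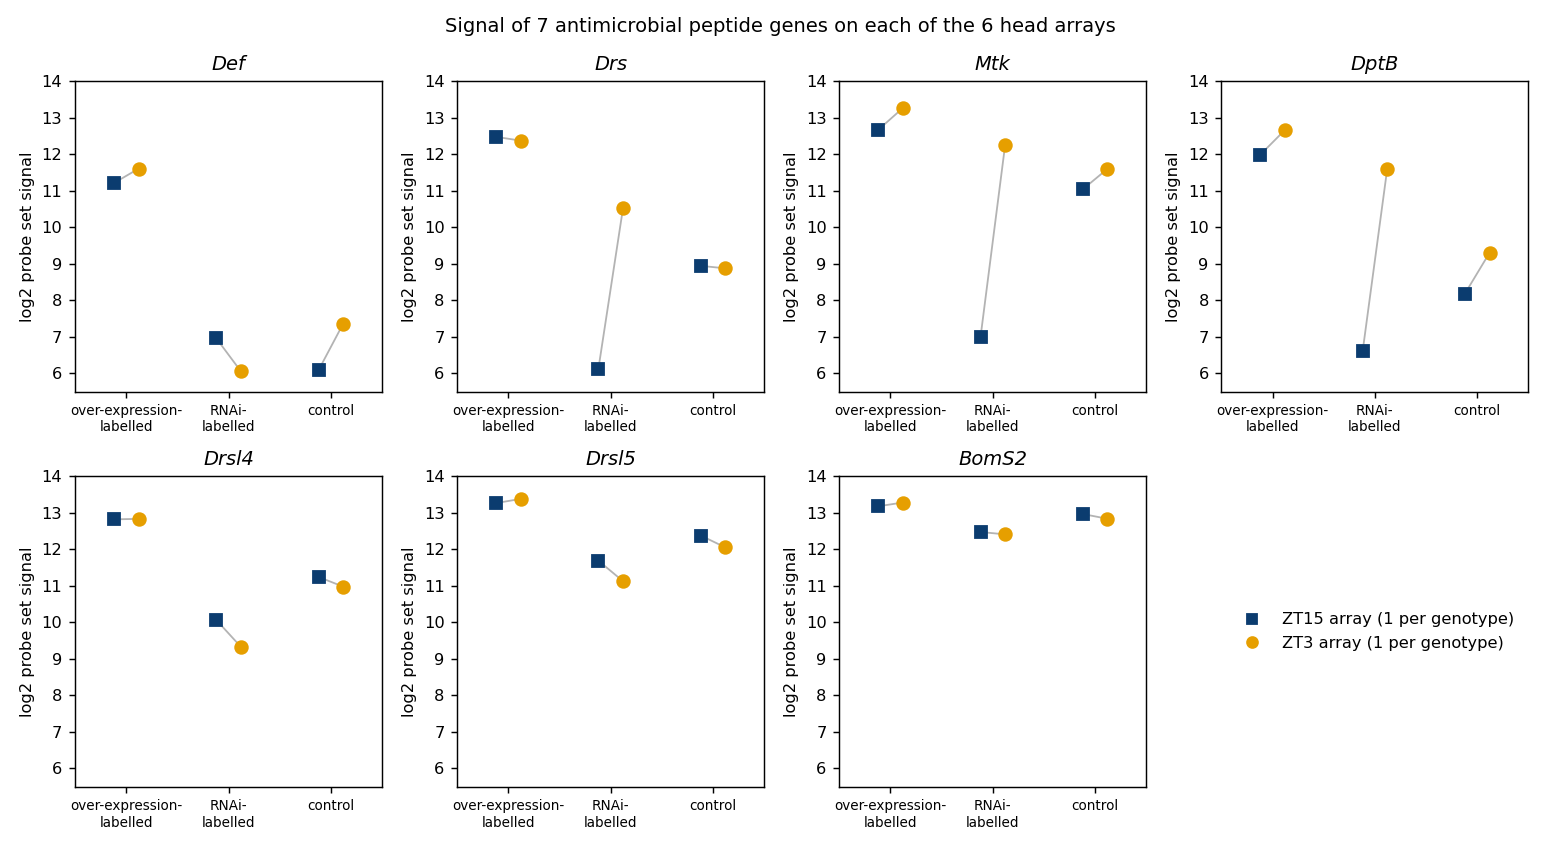
Log2 probe set signal (vertical axis, same scale in each panel) of the 7 antimicrobial peptide genes on each of the 6 arrays, by genotype along the horizontal axis, with ZT15 as blue squares and ZT3 as orange circles, 1 array per point and a grey line joining the arrays of a genotype. The over-expression-labelled arrays are the highest in every panel, and *Drs*, *Mtk* and *DptB* drop to 6.13, 6.99 and 6.60 on the RNAi-labelled ZT15 array.

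*Def* encodes Defensin, a peptide active mainly against Gram-positive bacteria, and it showed the largest difference of the 7 between the over-expression-labelled and control arrays. Its signal was 11.21 at ZT15 and 11.60 at ZT3 on the over-expression-labelled arrays, 6.96 and 6.05 on the RNAi-labelled arrays, and 6.09 and 7.36 on the control arrays. The over-expression-labelled arrays stood clear of the other 4, among which RNAi-labelled and control values overlapped. The gap to control was 5.12 at ZT15, the second largest positive difference of all 8516 genes at that time, and 4.24 at ZT3. Over both times *Def* rose by 4.68 ± 0.48 (SE, 2 arrays against 2; limma adjusted p = 0.0138), a 25.6-fold difference. RNAi-labelled and control arrays differed by -0.22 ± 0.48, with a 95% interval of -1.44 to 0.998 (adjusted p = 0.791), and by 0.87 at ZT15 and -1.31 at ZT3.

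*Drs* encodes Drosomycin, an antifungal peptide and the classical readout of Toll. It read 12.47 at ZT15 and 12.37 at ZT3 on the over-expression-labelled arrays, 6.13 and 10.52 on the RNAi-labelled arrays, and 8.94 and 8.87 on the control arrays. The over-expression-labelled and the control pairs each agreed within 0.10, while the RNAi-labelled arrays lay 4.39 apart and on either side of control. The gap between over-expression-labelled and control arrays was 3.53 at ZT15 and 3.50 at ZT3.

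*DptB*, a Diptericin gene and a readout of Imd, followed the same course. It read 11.98 at ZT15 and 12.66 at ZT3 on the over-expression-labelled arrays, 6.60 and 11.59 on the RNAi-labelled arrays, and 8.18 and 9.30 on the control arrays. The RNAi-labelled pair again bracketed the control pair, and its ZT3 array came within 1.07 of the over-expression-labelled ZT3 array. The gap between over-expression-labelled and control arrays was 3.80 at ZT15 and 3.36 at ZT3. *Def*, *Drs* and *DptB* were among the 15 genes, 0.176% of all, that were at least 8-fold above control at both times. That limit follows the values of these 3 genes, so the share is a description only.

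*Mtk* encodes Metchnikowin, a proline-rich peptide active against fungi and Gram-positive bacteria, and it was already bright on the control arrays. It read 12.66 at ZT15 and 13.26 at ZT3 on the over-expression-labelled arrays, 6.99 and 12.24 on the RNAi-labelled arrays, and 11.04 and 11.60 on the control arrays. A single array, RNAi-labelled at ZT15, stood far below the rest, and the other 5 lay between 11.04 and 13.26. The gap between over-expression-labelled and control arrays was 1.63 at ZT15 and 1.66 at ZT3.

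In the fit of all 6 arrays, none of *Drs*, *DptB* and *Mtk* passed between over-expression-labelled and control heads. *Drs* differed by 3.51 ± 1.13 (SE, limma adjusted p = 0.115), *DptB* by 3.58 ± 1.03 (0.0968) and *Mtk* by 1.64 ± 1.17 (0.399). These standard errors include the distance between the RNAi-labelled arrays, because the fit takes 1 estimate of the spread from all genotypes. With only the 4 over-expression-labelled and control arrays the same differences passed, with adjusted p of 0.00509, 0.00923 and 0.00953. That alternative takes its spread from fewer arrays and leaves out the pair that lay furthest apart. It does not replace the fit of all 6 arrays. Leaving out 1 of the RNAi-labelled arrays takes the spread from the same 4 arrays and gave the same differences. With 1 array left out of the 6, *Drs* ranged from 2.38 to 4.64, *DptB* from 2.39 to 4.77 and *Mtk* from 0.46 to 2.83. The lowest *Mtk* values were those without the control ZT3 array and, at 0.49, without the over-expression-labelled ZT15 array. The highest *DptB* value, 4.77, left out the ZT3 array of the over-expression-labelled heads.

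*Drsl4* and *Drsl5* are paralogs of *Drs* and neighbours on the chromosome, with 0 genes between them and 11 between *Drsl5* and *Drs* in RefSeq's gene table for the assembly Release 6 plus ISO1 MT. Both were below control on both RNAi-labelled arrays. *Drsl4* read 12.82 at ZT15 and 12.83 at ZT3 on the over-expression-labelled arrays, 10.06 and 9.33 on the RNAi-labelled arrays, and 11.24 and 10.98 on the control arrays. The 3 pairs did not overlap. *Drsl4* rose by 1.72 ± 0.18 in the over-expression-labelled genotype (SE, limma adjusted p = 0.014), 3.29-fold, and fell by 1.41 ± 0.18 in the RNAi-labelled genotype (adjusted p = 0.0173), 2.66-fold, a call lost without the RNAi-labelled ZT3 array (0.0571). Its gaps were 1.58 at ZT15 and 1.86 at ZT3 for the over-expression-labelled arrays, and -1.18 and -1.65 for the RNAi-labelled arrays.

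*Drsl5* kept the same order with smaller steps. It read 13.27 at ZT15 and 13.38 at ZT3 on the over-expression-labelled arrays, 11.69 and 11.13 on the RNAi-labelled arrays, and 12.38 and 12.05 on the control arrays. It rose by 1.11 ± 0.16 in the over-expression-labelled genotype (SE, limma adjusted p = 0.0277; 0.0577 without the time term) and fell by 0.81 ± 0.16 in the RNAi-labelled genotype (adjusted p = 0.0456). The fall lies close to the threshold and no longer passed in 8 of its 15 alternatives, among them a fit without the intensity trend (adjusted p = 0.0642). Probe sequences were not analysed here, so whether RNA of 1 of these paralogs binds probes of another was not tested.

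*BomS2* encodes a short Bomanin, one of a family of secreted peptides that Toll induces and that are needed against fungi and Gram-positive bacteria. It read 13.18 at ZT15 and 13.28 at ZT3 on the over-expression-labelled arrays, 12.47 and 12.41 on the RNAi-labelled arrays, and 12.97 and 12.84 on the control arrays. The pairs did not overlap, but they were less than 1 unit apart and close to the top of the range of the table. *BomS2* was 0.33 ± 0.09 above control on the over-expression-labelled arrays (SE, limma adjusted p = 0.0803), with a 95% interval of 0.11 to 0.54. It fell by 0.46 ± 0.09 on the RNAi-labelled arrays (adjusted p = 0.0391), 1.37-fold, and did not pass when the arrays were centred on ribosomal protein genes (0.0574), without the intensity trend (0.0676), without the RNAi-labelled ZT3 array (0.166) or without the RNAi-labelled ZT15 array (0.136).

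Counted over the 7 genes, 3 rose in the over-expression-labelled genotype against control (*Def*, *Drsl4* and *Drsl5*) and 0 fell, where 4.83% of all 8516 genes rose and 2.22% fell. The median log2 difference of the 7 was 1.72, against 0.01 over all genes, and 6 of the 7 were at least 1.5-fold above control at both times, against 4.7% of all genes. *BomS2* was the exception. The median gap of the 7 was 1.63 at ZT15 and 1.86 at ZT3. Of the 10 digestive tract markers, 9 were above control at ZT15 as well, with a median of 0.39 and *Jon65Aiv* at 2.10. The part of these markers in the peptide values was not tested. Without the over-expression-labelled ZT3 array *Def* stood 4.58, *Drsl4* 1.46 and *Drsl5* 0.83 above control, in a fit that leaves 1 array in that genotype. Without the control ZT3 array or without the control ZT15 array, 0 of the 7 and 0 of all genes passed by limma, with 3 and 6 of the 7 at an unadjusted p under 0.05 (1498 and 1287 of all genes), and 6 of the 7 passed where the spread came only from the over-expression-labelled and control arrays.

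In the RNAi-labelled genotype against control, 3 of the 7 genes fell (*Drsl4*, *Drsl5* and *BomS2*) and 0 rose, where 6.22% of all genes fell and 3.16% rose. The median difference of the 7 was -0.58, against 0.01 over all genes. The sign of the difference was not the same at both times for 4 of the 7, against 25.5% of all genes. For *Drs*, *Mtk* and *DptB* the signal was at least 1.5-fold above control at ZT3 and at least 1.5-fold below it at ZT15. That pattern was seen in 7 genes, 0.0822% of all. It follows the values of *Drs*, *Mtk* and *DptB* themselves, so the share is a description only. In the over-expression-labelled genotype the sign differed between the times for 0 of the 7, against 26.8% of all genes. Both RNAi-labelled arrays lay below both control arrays for *Drsl4*, *Drsl5* and *BomS2*, an order shown by 28.3% of all genes. For 7.91% of all genes, and for *Drsl4*, *Drsl5* and *BomS2*, the over-expression-labelled arrays were in addition both above both control arrays. Without the control ZT3 array or the control ZT15 array none of the 7 passed by limma, with 3 at an unadjusted p under 0.05 each time. Without the RNAi-labelled ZT15 array *Drs* rose by 1.65, *Mtk* by 0.64 and *DptB* by 2.40. Without the RNAi-labelled ZT3 array *Drs* fell by 2.82, *Mtk* by 4.03 and *DptB* by 1.69. Each of these fits leaves 1 RNAi-labelled array, so its differences rest on a single array and are given without a test.

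**Figure D2:**
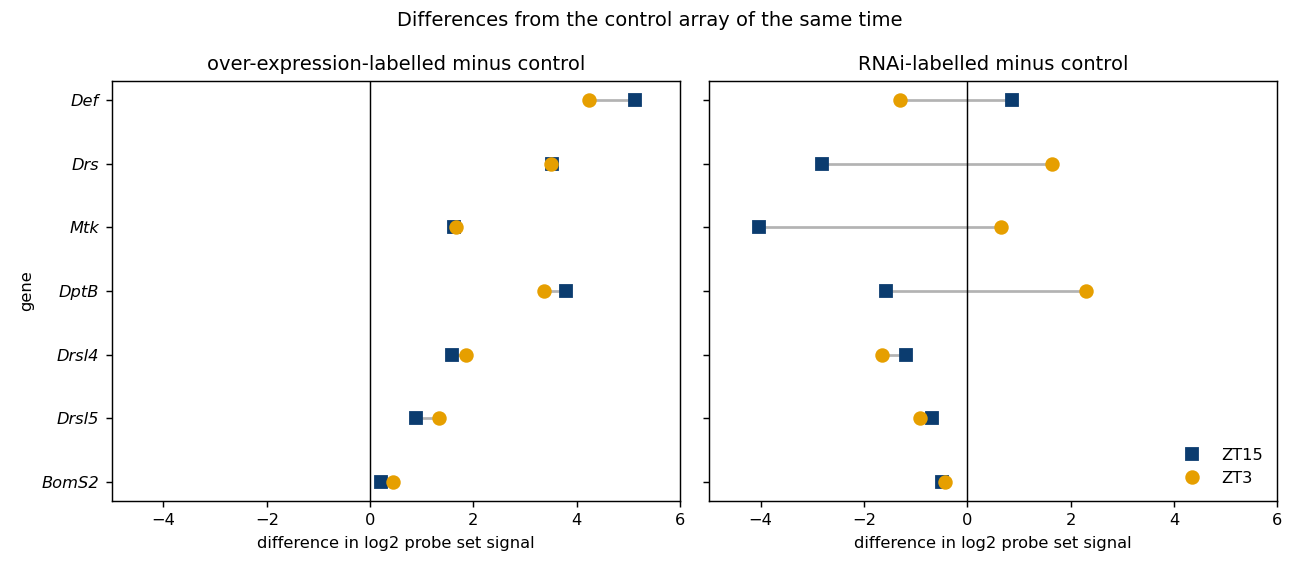
Difference in log2 probe set signal from the control array of the same time (horizontal axis) for the 7 genes (vertical axis), with the over-expression-labelled genotype in the left panel and the RNAi-labelled genotype in the right panel, ZT15 as blue squares and ZT3 as orange circles, each point the difference of 1 array from 1 array. In the left panel both times lie near each other and above 0 for each gene, and in the right panel *Drs*, *Mtk*, *DptB* and *Def* cross 0 between the times.

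Between the over-expression-labelled and the RNAi-labelled heads the median gap of the 7 genes was 4.25 at ZT15 and 1.85 at ZT3. Over both times 5 of the 7 genes were higher (*Def*, *Drs*, *Drsl4*, *Drsl5* and *BomS2*) and 0 lower, where 15.8% of all genes were higher and 11.9% lower. *Def* was 29.9-fold higher (log2 4.90 ± 0.48 SE, limma adjusted p = 0.00381), *Drsl4* 8.75-fold (3.13 ± 0.18, 0.00132), *Drsl5* 3.77-fold (1.92 ± 0.16, 0.00289) and *BomS2* 1.73-fold (0.79 ± 0.09, 0.0047). *Drs* differed by 4.10 ± 1.13 (adjusted p = 0.0491), close to the threshold. It no longer passed in 7 of its 15 alternatives. Among these were only the arrays of these genotypes (limma adjusted p = 0.0862), no time term (0.0777) and no intensity trend (0.0606). *DptB* differed by 3.22 ± 1.03 (0.0723) and *Mtk* by 3.34 ± 1.17 (0.0895). Their gaps were 5.38 and 5.67 at ZT15, against 1.07 and 1.02 at ZT3.

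Between night and day, no peptide gene passed over the 3 genotypes. By limma 0 of the 7 passed, with 1 at an unadjusted p under 0.05, where 0.364% of all genes were higher and 0.329% lower at ZT15, 59 genes in all. The RNAi-labelled arrays differed most. Between its ZT15 and ZT3 arrays *Mtk* lay 5.25 lower at night, *DptB* 4.99 lower and *Drs* 4.39 lower, which are folds of 38, 31.7 and 20.9. These were the 3 genes of all 8516 (0.0352%) with a signal at least 16-fold lower at ZT15 than at ZT3 on the RNAi-labelled arrays, a limit chosen after the values were seen.

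The other 4 peptide genes did not share that drop. On the RNAi-labelled arrays *Def* was 0.90 higher at ZT15, *Drsl4* 0.73 higher, *Drsl5* 0.56 higher and *BomS2* 0.07 higher. Of the 7 genes, 5 lay at least 1.5-fold apart between the times on the RNAi-labelled arrays, against 4.06% of all genes, while 2 did on the over-expression-labelled arrays (7.62% of all genes) and 2 on the control arrays (5.33%). On the over-expression-labelled arrays the ZT15 values lay between 0.68 below (*DptB*) and 0.10 above (*Drs*) the ZT3 values. On the control arrays they lay between 1.27 below (*Def*) and 0.33 above (*Drsl5*). Each genotype had 1 array per time, so whether its night-day difference departs from that of another genotype was not tested.

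**Figure D3:**
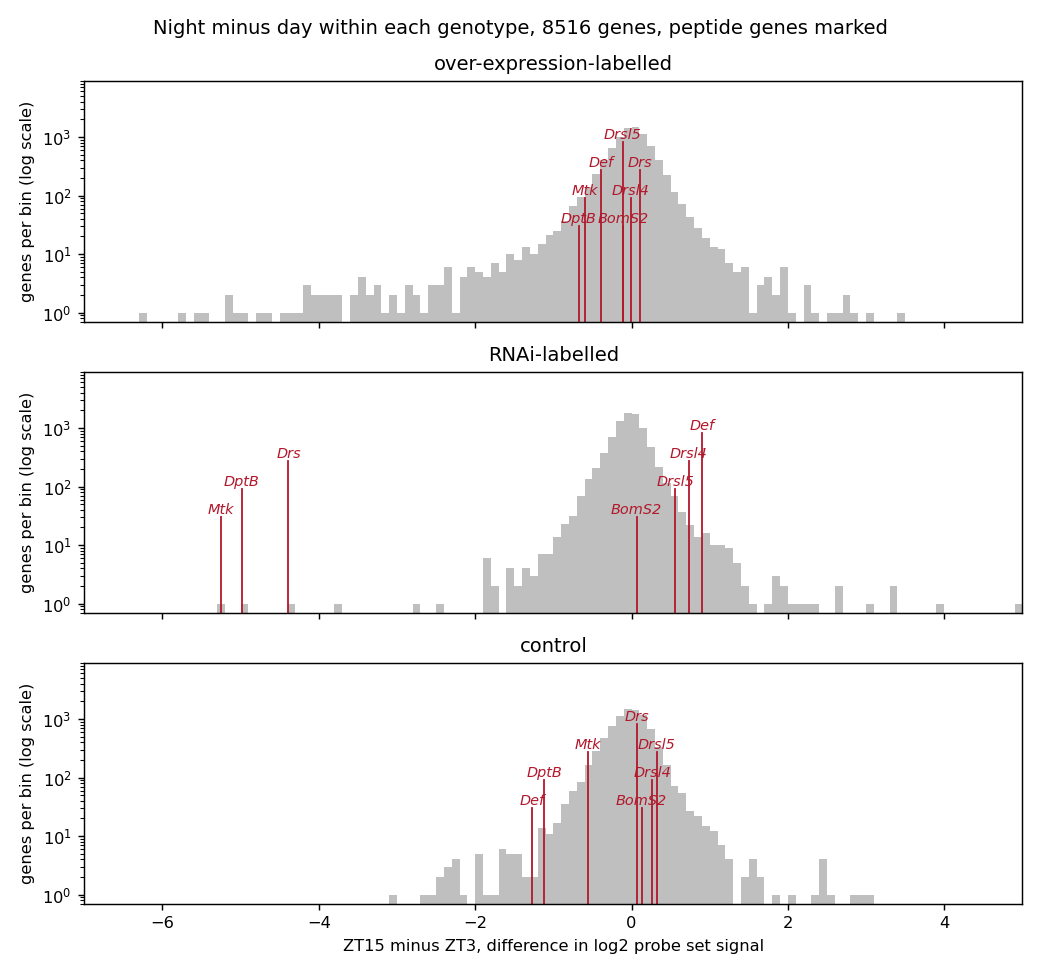
Distribution over 8516 genes of the ZT15 minus ZT3 difference in log2 probe set signal (horizontal axis, bins of 0.1) within the over-expression-labelled, RNAi-labelled and control genotypes from top to bottom, with genes per bin on a log vertical axis and the 7 peptide genes as red lines with their names. The heights of the red lines carry no value. On the RNAi-labelled arrays *Mtk*, *DptB* and *Drs* stand at the far left at -5.25, -4.99 and -4.39, while in the other panels all 7 lie between -1.27 and 0.33.

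Among 30 other effector peptide genes sought, 14 were on the table, and most that moved were higher in the over-expression-labelled genotype. Against control 6 rose and 0 fell, with a median of 0.65, where 4.83% of all genes rose and 2.22% fell. *edin*, a gene known to be induced by infection, rose 9.57-fold (log2 3.26, limma adjusted p = 0.0177), with 6.57 at ZT15 and 7.99 at ZT3, against 4.12 and 3.92 on the control arrays. *AttD*, an Attacin gene, rose by 1.90 (adjusted p = 0.0312), and the Bomanin genes *BomBc3* and *BomS5* rose by 1.70 (0.005) and 1.01 (0.0138). Against the RNAi-labelled heads 9 of the 14 were higher and 0 lower, where 15.8% of all genes were higher and 11.9% lower.

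In the RNAi-labelled genotype 3 of those 14 fell and 0 rose, all 3 of them Bomanin genes, with a list median of 0.09. Over all genes 6.22% fell and 3.16% rose there. The remaining Bomanin genes of the list did not pass. Of these *BomT3* was 0.77 and *BomBc2* 0.05 above control, and *BomBc3* was 0.05 and *BomS6* 0.36 below it. *BomS4* fell by 1.93 (limma adjusted p = 0.00605), reading 10.76 at ZT15 and 10.33 at ZT3, against 12.52 and 12.44 on the control arrays. *BomT2* fell by 1.15 (0.0181) and *BomS5* fell by 0.92 (0.0135). *BomS4* differed from control by 0.07 at ZT15 and 0.18 at ZT3 on the over-expression-labelled arrays. The short Bomanin genes *BomS4*, *BomS5* and *BomS6* thus lay below control on both RNAi-labelled arrays, as *BomS2* did. They had no night drop there, at 0.43, 0.05 and 0.16 higher at ZT15 than at ZT3.

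Between night and day on the RNAi-labelled arrays, 8 of the 14 other effector genes were lower and 6 higher at ZT15, with a median of -0.07. The widest gaps were those of *AttD* at -1.81, *CecB*, a Cecropin gene, at -1.56, and *edin* at -1.13. These 3 genes were lower at night on the over-expression-labelled arrays too, by differences of -0.66, -0.45 and -1.41, and on the control arrays they differed by -0.84, -0.11 and 0.20. Relative to control the 3 genes stood at -0.36, -0.50 and -0.29 at ZT15, and at 0.61, 0.95 and 1.04 at ZT3. The 3 genes were picked for these values after they were seen. At ZT15 *AttD* and *edin* were dim on the RNAi-labelled and control arrays, *AttD* at 3.10 and 3.46 and *edin* at 3.83 and 4.12.

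Among genes of the Toll branch, from recognition to transcription factors, 13 of 18 sought were on the table, and those that changed in the over-expression-labelled genotype were all higher. Against control 6 rose and 0 fell, with a median of 0.59, where 4.83% of all genes rose and 2.22% fell. *SPE*, the protease that cleaves Spätzle, rose by 1.16 (limma adjusted p = 0.0239), the gene *spz* for Spätzle itself by 0.95 (0.012), the protease gene *Hayan* by 0.78 (0.0453) and *nec*, a serpin gene of the cascade, by 0.73 (0.0306). The receptor gene *Tl* differed by -0.05 (adjusted p = 0.793) and *cact*, the gene for the inhibitor Cactus, by 0.15 (0.315), both named after their values were seen. In the RNAi-labelled genotype 1 fell, the protease gene *psh*, by 0.48 (limma adjusted p = 0.0462), and 0 rose, with a median of -0.19. Over all genes 6.22% fell and 3.16% rose there. Between the over-expression-labelled and RNAi-labelled heads 11 of the 13 were higher, led by *SPE* at 1.66 (limma adjusted p = 0.0035), and 0 lower. Over all genes 15.8% were higher and 11.9% lower.

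Of 20 Imd branch genes sought, 16 were on the table. Against control 3 rose in the over-expression-labelled genotype and 1 fell, with a median of 0.07, where 4.83% of all genes rose and 2.22% fell. *PGRP-SC2*, an amidase gene that limits Imd by degrading peptidoglycan, rose 13.9-fold (log2 3.80, limma adjusted p = 0.0141), *PGRP-LB*, another such amidase gene, rose by 0.93 (0.0365), and *Rel*, the gene for Relish, by 0.78 (0.0169). *ben*, which encodes a ubiquitin-conjugating enzyme, fell by 0.46 (0.0332). In the RNAi-labelled genotype *PGRP-LB* rose by 0.80 (limma adjusted p = 0.0447), and 0 fell, where 3.16% of all genes rose and 6.22% fell. Between over-expression-labelled and RNAi-labelled heads 3 of the 16 were higher and 1 lower, where 15.8% of all genes were higher and 11.9% lower. *PGRP-SC2* was lower at night in all 3 genotypes, with 9.81 at ZT15 and 11.51 at ZT3 on the over-expression-labelled arrays, 5.90 and 8.34 on the RNAi-labelled arrays, and 6.55 and 7.18 on the control arrays.

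**Figure D4:**
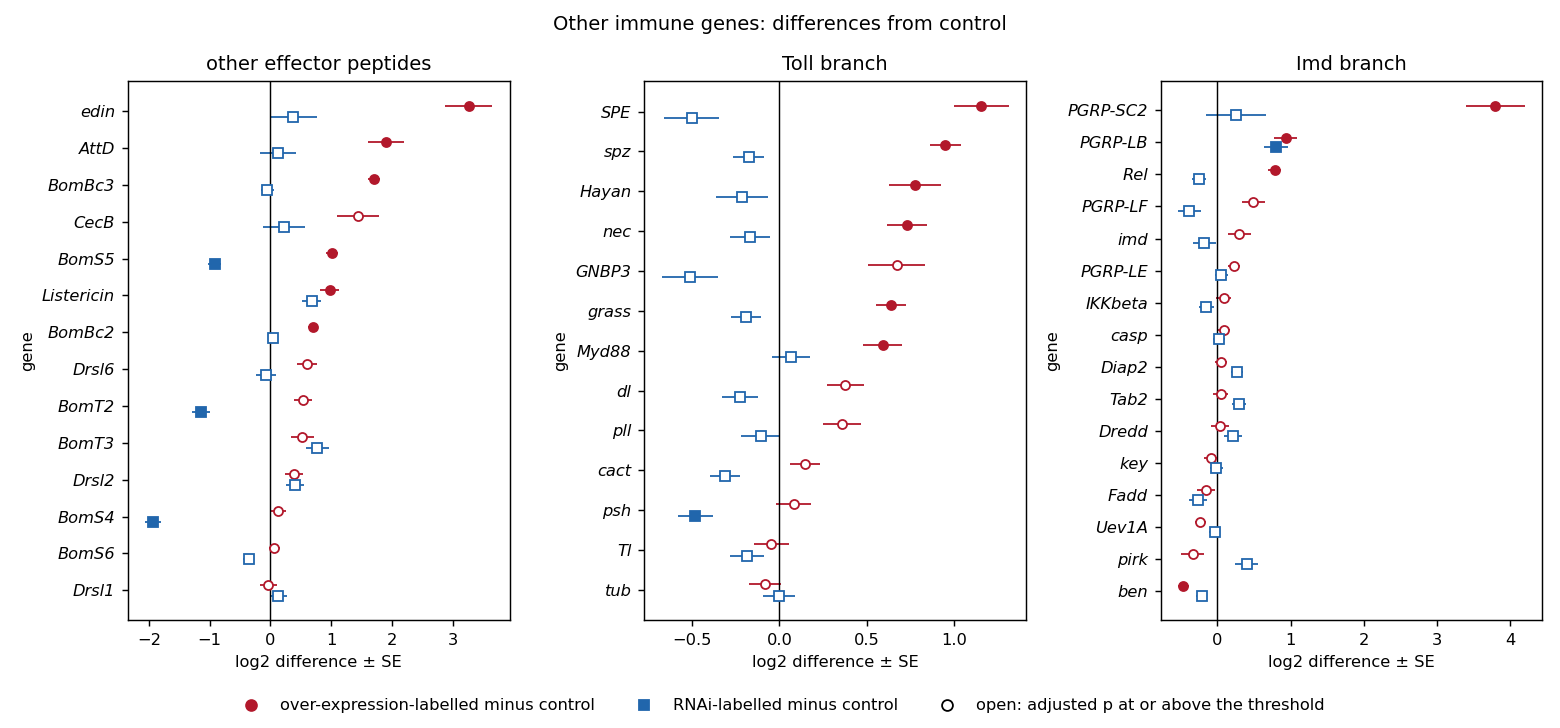
Log2 differences from control with their standard errors (horizontal axis, 2 arrays against 2, own scale in each panel) for the other effector peptide, Toll branch and Imd branch genes on the table (vertical axis), with the over-expression-labelled genotype as red circles and the RNAi-labelled genotype as blue squares, filled where the limma adjusted p was below 0.05. Filled red circles lie above 0 except *ben*, and filled blue squares lie below 0 except *PGRP-LB*.

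Some markers of cells that make these peptides changed as well. Of 12 hemocyte markers, 2 rose in the over-expression-labelled genotype and 4 fell in the RNAi-labelled genotype, with list means of 8.34 at ZT15 and 8.63 at ZT3 in over-expression-labelled heads, 7.75 and 7.78 in RNAi-labelled heads, and 8.09 and 8.33 in control heads. The means of the 9 fat body markers on the table lay between 12.92 and 13.13 on all 6 arrays. Of them 1 rose (*Tsf1*, 1.13) and 1 fell (*Lsd-1*, -1.70) against control in over-expression-labelled heads. In RNAi-labelled heads 1 fell (*fit*, -1.69). The means thus average moves in opposite directions. They also include probe sets near the top of the range, such as *Yp1* at 14.29 over the 6 arrays. Over all genes, 4.83% rose and 2.22% fell in the over-expression-labelled genotype and 6.22% fell in the RNAi-labelled genotype. Between over-expression-labelled and RNAi-labelled heads 9 of the 12 hemocyte markers were higher and 0 lower. Of the 9 fat body markers 2 were higher and 1 lower, where 15.8% of all genes were higher and 11.9% lower. The part of either list in the peptide values was not tested.

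The genes whose pattern over the 6 arrays was most like that of the peptide genes were *Gasp*, *Cdk4*, *insc*, *Bbd* and *Mec2*. Likeness was Pearson's r with the mean of the 7 genes, each centred and scaled, over 6 arrays and among 1576 other genes with a range of at least 1 unit. It was 0.995 for *Gasp*, a chitin-binding protein gene, 0.994 for *Cdk4*, a cyclin-dependent kinase gene, 0.988 for *insc*, 0.987 for *Bbd* and 0.985 for *Mec2*. The 7 peptide genes had 0.81 (*Mtk*) to 0.92 (*Drs*) with their own mean. The 6 arrays come from 3 genotypes, so the points share their genotype in pairs, and r is a description of these arrays.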

How the data were processed

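Array signals were deposited by the authors as log2 values, 1 per probe set and array. That scale was read from the values. Per the submitters' processing notes the software was Affymetrix Expression Console, whose version, summarisation and normalization are not given in the sources used here. No normalization was added. Each deposited probe set reached 4.0 on at least 1 array, so dim ones appear to have been left out earlier. Probe sets took the single gene that the platform annotation lists, and current symbols came from RefSeq by gene ID (9260 of 9286 matched). The brightest probe set stood for its gene.

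limma 3.58.1 in R 4.3.3 fitted genotype and time additively on all 6 arrays, with an intensity trend in eBayes, two-sided, adjusted by Benjamini-Hochberg over 8516 genes, at a threshold of 0.05, with 2 residual and 3.3 prior degrees of freedom. All 7 peptide genes would also pass a filter at the 40th percentile of probe set means (6.79), an alternative here. *Def* did so through its over-expression-labelled mean of 11.4, with RNAi-labelled and control means of 6.5 and 6.72. For *Def* that filter is therefore not independent of the difference reported. The fit was tested on simulated data. Differences at ZT15 and ZT3 are single arrays without a test. The number of arrays limits the precision.

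The members, lists and tests were chosen with earlier results of these data known. The naming rule gave every member, up to 4 passing genes per list and comparison with the largest differences, and the 5 genes most alike, without genes that have only a CG or CR number. Alternatives were other filters, probe set rules, normalizations and terms, and each array left out. Figures were drawn with matplotlib 3.10.9.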

Additional observations from a re-analysis of the deposited data

Results flagged for a closer look

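In the RNAi-labelled genotype 4 of the 7 peptide genes lay on opposite sides of control at ZT15 and ZT3. *Mtk* was at -4.04 from control at ZT15 and 0.65 at ZT3, *Drs* at -2.81 and 1.64, and *DptB* at -1.58 and 2.29. *Def* went the other way, at 0.87 and -1.31. Opposite signs were seen in 25.5% of all genes. A difference of at least 1.5-fold above control at ZT3 together with at least 1.5-fold below it at ZT15 was seen in 7 genes (0.0822%), 3 of them *Mtk*, *Drs* and *DptB*. That pattern follows the values of these 3 genes, so the share is a description only. Each value sets 1 array against 1 array, and the difference between the times was not tested. In the over-expression-labelled genotype none of the 7 changed sign, against 26.8% of all genes.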

How the results depend on the processing

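The direction of each peptide gene against control in the over-expression-labelled genotype, and against the RNAi-labelled genotype, held in all 15 alternatives. The filter, the probe set rules, the intensity trend and the time term left these differences unchanged, so they could not turn the sign. Both over-expression-labelled arrays lay above all other arrays for each gene, which left little room for a change of sign in the rest. With 1 array left out, the number of peptide genes called ranged from 0 to 6 for the over-expression-labelled genotype against control, 0 to 3 for the RNAi-labelled genotype against control, 4 to 7 between them and 0 to 0 for time, and the number of all genes called from 0 to 1299, 0 to 1597, 585 to 2537 and 0 to 146. Such fits leave 1 array in a genotype and assume that it varies like the others. In them *Def* ranged from -1.09 to 0.65, *Drs* from -2.82 to 1.65, *Mtk* from -4.03 to 0.64 and *DptB* from -1.69 to 2.40 in the RNAi-labelled genotype against control, and for ZT15 against ZT3 *Def* from -0.83 to 0.26, *Drs* from -2.16 to 0.09 and *BomS2* from -0.02 to 0.10.

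With only the arrays compared, 6 peptide genes passed in the over-expression-labelled genotype against control, and of all genes 1599 passed in the RNAi-labelled genotype against control and 1308 between both altered genotypes. Without the intensity trend 1 peptide gene passed in the RNAi-labelled genotype, and of all genes 368, 507 and 29 passed for the over-expression-labelled genotype, the RNAi-labelled genotype and time, against 600, 799 and 59. Without the time term, which is the fit with no replicate block since time pairs the arrays across genotypes, 226 and 351 genes passed against control, and without the genotype term 3 passed for time. Centring on ribosomal protein genes moved the median of all genes to -0.15 between the altered genotypes, and the higher share of calls there to 37.9%, or 49% with quantile normalization, from 57.1%. For the over-expression-labelled genotype against control centring gave 54.7%, against 68.5%. The causes were not tested.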

Other observations

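Beside *Mtk*, *Drs* and *DptB*, the 7 genes at least 1.5-fold above control at ZT3 and at least 1.5-fold below it at ZT15 on the RNAi-labelled arrays included *PGRP-SC2* (-0.66 at ZT15 and 1.16 at ZT3), *Os-C* (-0.81 and 1.69) and the odorant-binding protein gene *Obp83b* (-1.31 and 0.73). These were named after their values were seen. *Os-C* and *Obp83b* were dim, between 3.21 and 5.01 on all 6 arrays.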
